A study of Mus musculus with 6 samples.

Results

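The genes of tetrahydrobiopterin (BH4) synthesis and recycling, *Gch1*, *Gchfr*, *Pts*, *Spr* and *Qdpr*, were examined together with *Nos1*, the gene of neuronal nitric oxide synthase, in lumbar dorsal root ganglia (DRGs) of naïve mice. The 6 genes were listed by symbol for their place in this pathway. Each of the 6 has 1 probe set of its own in the array annotation, and they are 6 of the 22180 genes with such a probe set. HDAC4 Nav1.8 cKO mice (cKO below) carry floxed *Hdac4* alleles and a Cre recombinase driven by Nav1.8, and their controls are HDAC4 fl/fl mice (wild-type below), which carry the same floxed alleles. Both groups are labelled as C57Bl/6 adults, and the methods of the study give an age of 2 mo for the microarray RNA, with 3 samples each and 1 Affymetrix Mouse Gene 2.0 ST array per sample. The microarray comparison asks whether loss of HDAC4, a class IIa histone deacetylase and transcriptional corepressor, alters mRNA levels in ganglia without injury or inflammation. Nav1.8-Cre acts mainly in small nociceptive neurons and is active from embryonic development on, whereas the RNA came from whole ganglia with all their cell types. Fewer cells of a type and less RNA per cell therefore cannot be told apart. Whether each sample was a separate animal is not given in the labels, so p values measure the spread between these samples only.

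BH4 is a cofactor that aromatic amino acid hydroxylases, alkylglycerol monooxygenase and all nitric oxide synthases need for catalysis. It is made from GTP in a chain of GTP cyclohydrolase (GCH1), which sets the pace, 6-pyruvoyltetrahydropterin synthase (PTS) and sepiapterin reductase (SPR). After use it is returned to its active form by pterin carbinolamine dehydratase and dihydropteridine reductase (QDPR). In injured sensory neurons, BH4 synthesis is known from rodent models to be raised through *Gch1* and to add to pain sensitivity, and NOS1 is a producer of nitric oxide in a subset of DRG neurons.

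All 6 genes are protein-coding, and they lie on 5 chromosomes of the RefSeq annotation of the mouse genome (GRCm38.p6). *Gch1* is at chr14:47153895-47189413, *Gchfr* at chr2:119167788-119172389, *Pts* at chr9:50521617-50528716, *Spr* at chr6:85133680-85137764, *Qdpr* at chr5:45434032-45450229 and *Nos1* at chr5:117866839-117958840. The 250 bases before 1 annotated transcript start of each gene were read from RefSeq, and 3 are shown. For *Pts* this start lies inside the locus given above, so that 60 bases of its window fall within the locus, and the other windows end at its edge. *Gch1* is shown as the gene of the pacing enzyme, *Pts* as the gene whose groups did not overlap on the arrays, and *Nos1* as the gene with the widest spread between arrays. Capitals mark, on either strand, each CCAAT box, each GC box core (GGGCGG), each longer part of the cAMP response element (TGACG) and each TATA box (TATAAA), and each run reads toward the gene. The *Gch1* window is chr14:47189414-47189663 on the minus strand, the *Pts* window chr9:50528657-50528906 on the minus strand and the *Nos1* window chr5:117866589-117866838 on the plus strand (GRCm38.p6).
Gch1: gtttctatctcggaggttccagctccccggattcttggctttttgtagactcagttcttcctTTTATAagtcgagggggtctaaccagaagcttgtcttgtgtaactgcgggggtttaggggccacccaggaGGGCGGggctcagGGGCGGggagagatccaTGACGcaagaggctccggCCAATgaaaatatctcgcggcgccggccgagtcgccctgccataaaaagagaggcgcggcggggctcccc
Pts: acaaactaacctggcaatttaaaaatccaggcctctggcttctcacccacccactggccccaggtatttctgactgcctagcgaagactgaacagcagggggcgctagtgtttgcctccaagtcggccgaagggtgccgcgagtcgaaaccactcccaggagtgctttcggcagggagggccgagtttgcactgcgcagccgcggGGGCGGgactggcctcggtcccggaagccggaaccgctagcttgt
Nos1: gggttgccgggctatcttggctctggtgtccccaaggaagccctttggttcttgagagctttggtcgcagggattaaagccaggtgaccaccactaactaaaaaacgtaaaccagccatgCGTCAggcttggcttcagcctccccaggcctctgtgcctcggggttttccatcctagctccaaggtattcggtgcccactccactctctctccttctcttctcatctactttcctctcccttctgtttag

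The *Gch1* window held all 4 of these motifs. GGGCGG was found in the windows of *Gch1*, *Gchfr*, *Pts*, *Spr* and *Qdpr* but not in that of *Nos1*, and 32.7% of all 32851 RefSeq windows held it. CCAAT was found in *Gch1*, *Gchfr* and *Qdpr* (33.8% of all windows), TGACG in *Gch1* and *Nos1* (17.8%), and TATAAA in *Gch1* alone of these genes (12.4%). The MEF2 consensus, searched because MEF2 factors are known partners of HDAC4, was in 0 of the 6 windows and in 2.9% of all windows. GC content was 59.2% to 66.4% in the 5 BH4 genes and 54.0% in *Nos1*, against a median of 52.4% over all windows. The *Nos1* window held 6 CpG dinucleotides, the median over all windows, and the others 14 to 27. These values hold for 1 annotated start of each gene, and other starts were not read. The differences between *Nos1* and the BH4 genes are thus differences of these windows, not of the genes. A match is a description of these letters only.

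None of the 6 genes passed the test of a difference between cKO and wild-type DRGs. Values are log2 signals made by the robust multichip average (RMA), and differences are log2 fold changes, cKO minus wild-type. limma served for the test (2-sided), and p values of all 41345 probe sets were adjusted by the method of Benjamini and Hochberg. The share of probe sets with an adjusted p under 0.05 was 0% (0 probe sets), and 3081 (7.45%) had an unadjusted p under 0.05 in limma. Of the 6 genes, 0 reached either threshold, where 5.48% of all genes had an unadjusted p under 0.05. The adjusted p of the 6 ranged from 0.687 for *Pts* to 0.981 for *Gch1*. Fold changes were above 0 for 2 genes (50.8% of all genes) and below 0 for 4 (49.2% of all genes), with a median of -0.07 beside a median of 0.00 over all genes. For 5 of the 6 the 95% confidence interval lay within 0.5 of 0 on the log2 scale, as it did for 87.3% of all genes. With 3 arrays a group, 0.1 is the smallest p that an exact permutation test can reach.

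**Figure D1:**
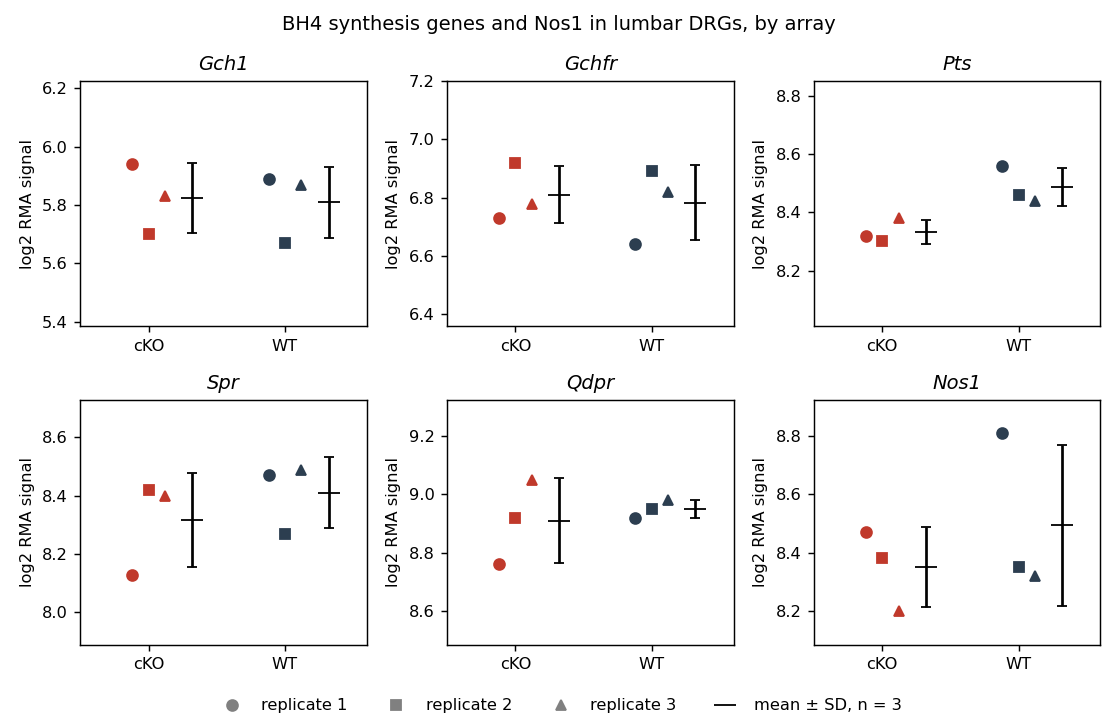
Log2 RMA signal (y axis) of the 6 genes in each cKO (red, left) and wild-type (WT, dark, right) array, with marker shape for the replicate number and the bars at mean ± SD (n = 3). Every panel spans the same height on the log2 scale. The groups are apart only for *Pts*, where the cKO arrays read 8.32, 8.30 and 8.38 and the wild-type arrays 8.56, 8.46 and 8.44.

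The arrays were alike as a whole, with medians of 6.43 to 6.5 and correlations of 0.987 to 0.994 between arrays. *Xist*, the RNA of the inactive X chromosome, read 11.74, 6.67 and 5.95 in the cKO arrays and 11.60 to 11.71 in the wild-type arrays, and the Y-linked *Uty* read 4.59, 9.26 and 9.01 in the cKO arrays and 4.31 to 4.59 in the wild-type arrays. By these genes cKO replicates 2 and 3 read as male, and cKO replicate 1 and the wild-type arrays as female, while the methods state that groups were matched for sex. Fold changes over the 6 arrays are thus partly confounded with sex. Each of the 6 genes is therefore also given without cKO replicate 1, where sex and genotype cannot be told apart, and with sex, read from these genes, as a covariate, where the comparison rests on cKO replicate 1 against the wild-type arrays. The targeted gene *Hdac4* read 9.17, 9.14 and 9.21 in the cKO arrays and 9.22, 9.49 and 9.19 in the wild-type arrays, a fold change of -0.13 (SE 0.10, adjusted p = 0.776 from limma) that was -0.03 without wild-type replicate 2. The annotation does not say which exons its probe set reads. By RT-qPCR, the paper reports significantly less *Hdac4* mRNA in cKO DRGs, both in the floxed exons and outside them. It also reports less HDAC4 protein by Western blot. DRG tissue was evident from neuronal and glial markers, for example *Snap25*, a synaptic protein gene, at 13.28 to 13.32 and *Scn10a*, the Nav1.8 gene, at 12.20 to 12.49 over the 6 arrays.

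*Gch1* commits GTP to BH4 synthesis. It read 5.94, 5.70 and 5.83 in the cKO arrays, against 5.89, 5.67 and 5.87 in the wild-type arrays. The cKO arrays held both the highest value and the second lowest, so the groups overlapped fully. The means were 5.82 ± 0.12 in cKO and 5.81 ± 0.12 in wild-type DRGs (SD, n = 3 each). The log2 fold change of 0.01 (SE 0.10, adjusted p = 0.981 from limma, exact permutation p = 0.9) had a 95% confidence interval of -0.22 to 0.25. Its sign rested on single arrays, with -0.045 without cKO replicate 1, -0.06 without wild-type replicate 2 and 0.13 with sex as a covariate. *Gch1* was the only one of the 6 below the median probe set signal of 6.47. How far it lay above background is unknown without detection calls, and the level of a probe set also depends on its probes.

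*Gchfr* encodes the feedback regulator that binds GCH1 and mediates its inhibition by BH4. It read 6.73, 6.92 and 6.78 in the cKO arrays, against 6.64, 6.89 and 6.82 in the wild-type arrays. The lowest array was a wild-type sample and the highest a cKO sample, 0.28 apart. With means of 6.81 ± 0.10 in cKO and 6.78 ± 0.13 in wild-type DRGs (SD, n = 3 each), the log2 fold change was 0.03 (SE 0.10, 95% confidence interval -0.20 to 0.26, adjusted p = 0.960 from limma, exact permutation p = 0.9). It was 0.07 without cKO replicate 1, -0.03 without cKO replicate 2, -0.045 without wild-type replicate 1 and -0.05 with sex as a covariate.

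*Gch1* and *Gchfr* ran opposite to each other across arrays. The 2 arrays with the lowest *Gch1*, cKO replicate 2 and wild-type replicate 2, were the 2 with the highest *Gchfr*, and the 2 with the highest *Gch1*, cKO replicate 1 and wild-type replicate 1, were the 2 with the lowest *Gchfr*. Pearson's r was -0.83 over the 6 arrays (exact permutation p = 0.05) and Spearman's rho -0.83 (exact permutation p = 0.0583). Among the 15 pairs of the 6 genes, the adjusted p was 0.667 for r and 0.438 for rho, and the pair was singled out after its values were seen. Without the 2 arrays farthest from the median of *Gch1*, cKO replicate 2 and wild-type replicate 2, r was -0.42, so the relation rests on those arrays. The *Gch1* value minus the *Gchfr* value was -0.79, -1.22 and -0.95 in the cKO arrays and -0.75, -1.22 and -0.95 in the wild-type arrays. The shift of this difference between the groups was -0.01. An inverse relation was not particular to this pair. Among the same 15 pairs, *Qdpr* and *Nos1* had a Spearman's rho of -0.90 (exact permutation p = 0.0278, adjusted p = 0.417) and a Pearson's r of -0.44 (exact permutation p = 0.331).

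**Figure D2:**
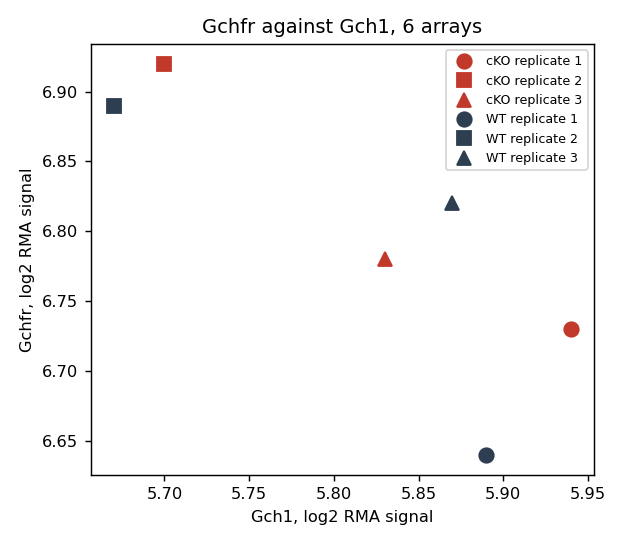
*Gchfr* (y axis) against *Gch1* (x axis), both as log2 RMA signal, with 1 point for each of the 3 cKO (red) and 3 wild-type (WT, dark) arrays. The points run from high *Gchfr* and low *Gch1* at the upper left to the reverse at the lower right (r = -0.83), with both groups spread along the whole range.

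*Pts* acts after *Gch1* in the pathway. Its values were 8.32, 8.30 and 8.38 in the cKO arrays, against 8.56, 8.46 and 8.44 in the wild-type arrays. Every cKO array was below every wild-type array. The nearest pair read 8.38 in cKO and 8.44 in wild-type, and the wild-type arrays spanned 0.12. Of the 6 genes, 1 had groups that did not overlap, while this held for 13.7% of all genes (7.4% lower and 6.3% higher in cKO). *Pts* averaged 8.33 ± 0.04 in cKO and 8.49 ± 0.06 in wild-type DRGs (SD, n = 3 each). The cKO level was thus 0.899 times that of wild-type (log2 fold change -0.15, SE 0.07, 95% confidence interval -0.32 to 0.02). It did not pass the test (unadjusted p = 0.07, adjusted p = 0.687 from limma, exact permutation p = 0.1). With single arrays left out the log2 fold change was -0.18 to -0.12 (-0.15 without cKO replicate 1), and it was -0.17 with sex as a covariate.

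*Spr* encodes the reductase of the last steps of synthesis. It read 8.13, 8.42 and 8.40 in the cKO arrays, against 8.47, 8.27 and 8.49 in the wild-type arrays. The low cKO mean came from replicate 1, and cKO replicates 2 and 3 lay within the wild-type range. The means were 8.32 ± 0.16 in cKO and 8.41 ± 0.12 in wild-type DRGs (SD, n = 3 each), a log2 fold change of -0.09 (SE 0.11, 95% confidence interval -0.36 to 0.17, adjusted p = 0.847 from limma, exact permutation p = 0.5). Without cKO replicate 1 the fold change was 0.00, and with sex as a covariate it was -0.28 (adjusted p = 0.547 from limma).

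*Qdpr*, the recycling reductase, read 8.76, 8.92 and 9.05 in the cKO arrays, against 8.92, 8.95 and 8.98 in the wild-type arrays. The cKO arrays held both the lowest and the highest value, and the wild-type arrays lay within 0.06 of each other. The means were 8.91 ± 0.15 in cKO and 8.95 ± 0.03 in wild-type DRGs (SD, n = 3 each), a log2 fold change of -0.04 (SE 0.09, 95% confidence interval -0.26 to 0.18, adjusted p = 0.930 from limma, exact permutation p = 0.8). The value was 0.035 without cKO replicate 1 and -0.19 with sex as a covariate (adjusted p = 0.627 from limma). For *Spr* and *Qdpr* alike, cKO replicate 1 was the lowest of the 6 arrays.

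*Nos1*, the BH4-dependent enzyme of the list, read 8.47, 8.38 and 8.20 in the cKO arrays, against 8.81, 8.35 and 8.32 in the wild-type arrays. Wild-type replicate 1 stood above the other 5 arrays, and the remaining wild-type arrays lay within the cKO range. The range over all arrays was 0.61 on the log2 scale, or 1.53-fold between the highest and the lowest array, compared with 0.26 to 0.36 for the other genes. The means were 8.35 ± 0.14 in cKO and 8.49 ± 0.27 in wild-type DRGs (SD, n = 3 each). The log2 fold change was -0.14 (SE 0.15, 95% confidence interval -0.51 to 0.22, adjusted p = 0.830 from limma, exact permutation p = 0.7). Leaving out wild-type replicate 1 turned it to 0.015, while it was -0.20 without cKO replicate 1 and -0.02 with sex as a covariate.

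**Figure D3:**
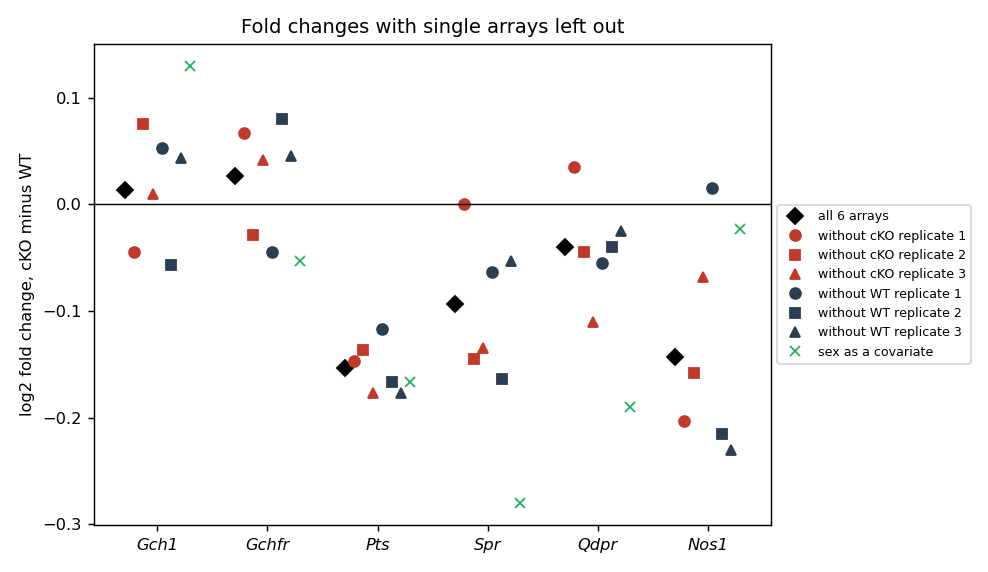
Log2 fold change, cKO minus wild-type (WT), on the y axis for each of the 6 genes with all arrays (black diamond), without each cKO array (red), without each wild-type array (dark) and with sex as a covariate (green cross). *Pts* stays between -0.18 and -0.12, *Spr* reaches 0.00, and *Gch1*, *Gchfr*, *Qdpr* and *Nos1* have values on both sides of 0.

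The other genes of the pathway were read from 4 lists that name 33 genes, and 30 of these could be read from a single-gene probe set. The other 3 are not analysed here. Over these 30 genes, 0 had an adjusted p under 0.05 in limma (adjusted p 0.647 to 0.990), and the median log2 fold change was -0.02. Without adjustment, 3 of the 30 had a p under 0.05, all lower in cKO, namely *Pcbd2*, *Agmo* and *Pde5a*. These unadjusted p values rested on the setting. They were under 0.05 in 8, 8 and 6 of 14 alternatives, and over 0.05 for all 3 genes with sex as a covariate (0.0522, 0.193 and 0.267). The 3 genes are 10% of the 30, beside 5.48% of all genes (2.67% higher and 2.8% lower in cKO). Groups did not overlap for 4 of the 30, all lower in cKO (13.3%), beside 13.7% of all genes.

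Among the side enzymes of BH4 metabolism, 1 of 4 measured genes had a positive fold change, and the median was -0.06. *Pcbd2*, a pterin carbinolamine dehydratase gene, read 7.23, 7.23 and 7.39 in the cKO arrays, against 7.57, 7.44 and 7.51 in the wild-type arrays. All cKO arrays were the lower ones. The fold change was -0.22 (SE 0.08, adjusted p = 0.647 from limma). Its paralog *Pcbd1* was at -0.01 (SE 0.09), and the carbonyl reductase genes *Cbr1* and *Cbr3*, whose products can stand in for SPR, were at -0.12 (SE 0.10) and 0.10 (SE 0.20).

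Of the BH4-dependent enzymes other than *Nos1*, 5 of 6 had a positive fold change, with a median of 0.065. *Agmo*, which encodes the alkylglycerol monooxygenase that cleaves ether lipids, was the exception. It read 8.29, 8.16 and 8.25 in the cKO arrays, against 8.37, 8.45 and 8.51 in the wild-type arrays, without overlap. Its fold change was -0.21 (SE 0.08, adjusted p = 0.647 from limma). *Th*, the tyrosine hydroxylase gene that marks C-fiber low-threshold mechanoreceptors in DRGs, read 10.71, 10.73 and 10.91 in the cKO arrays, against 10.52, 10.86 and 10.90 in the wild-type arrays, a fold change of 0.02 (SE 0.12). The tryptophan hydroxylase gene *Tph1* was at 0.19 (SE 0.09, adjusted p = 0.688 from limma) and *Tph2* at 0.07 (SE 0.09). The inducible synthase gene *Nos2* was at 0.06 (SE 0.10) and the endothelial synthase gene *Nos3* at 0.09 (SE 0.08). *Tph1*, *Tph2* and *Nos2* were below the median probe set signal.

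The 13 genes of nitric oxide partners had 6 positive and 7 negative fold changes, with a median of -0.04. Those of the proteins that bind or place NOS1 were at 0.06 for *Nos1ap* (SE 0.08), 0.12 for *Dlg4*, the postsynaptic scaffold PSD-95 (SE 0.09), and -0.08 for the light chain gene *Dynll1* (SE 0.10). For the arginine supply, the transporter genes *Slc7a1* and *Slc7a2* were at 0.13 (SE 0.08) and -0.09 (SE 0.08), *Asl* at 0.13 (SE 0.10) and *Ass1* at -0.11 (SE 0.09). *Ddah1*, whose product breaks down an inhibitor of nitric oxide synthases, was at -0.07 (SE 0.07), and *Nostrin*, which encodes a NOS3 trafficking protein, at -0.11 (SE 0.08). *Arg1*, the arginase gene that competes for arginine, read 6.38, 6.36 and 6.31 in the cKO arrays, against 6.57, 6.53 and 7.78 in the wild-type arrays, without overlap. The fold change was -0.61 (SE 0.33, unadjusted p = 0.108, adjusted p = 0.706 from limma), and its size rested on wild-type replicate 3. Without that array the fold change was -0.20 (SE 0.08, unadjusted p = 0.049, adjusted p = 0.888 from limma).

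The cGMP arm, which nitric oxide drives through soluble guanylyl cyclase, had 5 of 7 negative fold changes and a median of -0.12. *Pde5a*, the gene of a cGMP-degrading phosphodiesterase, read 8.33, 8.23 and 8.25 in the cKO arrays, against 8.44, 8.39 and 8.52 in the wild-type arrays, without overlap. Its fold change was -0.18 (SE 0.07, adjusted p = 0.662 from limma). The cyclase subunit gene *Gucy1a2* was at -0.22 (SE 0.11, and -0.11 without cKO replicate 3), *Gucy1b1* at -0.09 (SE 0.14) and *Gucy1a1* at 0.03 (SE 0.09). The cGMP-dependent kinase gene *Prkg1*, expressed in nociceptors, was at -0.12 (SE 0.12) and *Prkg2* at -0.16 (SE 0.12, and -0.08 without cKO replicate 1).

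**Figure D4:**
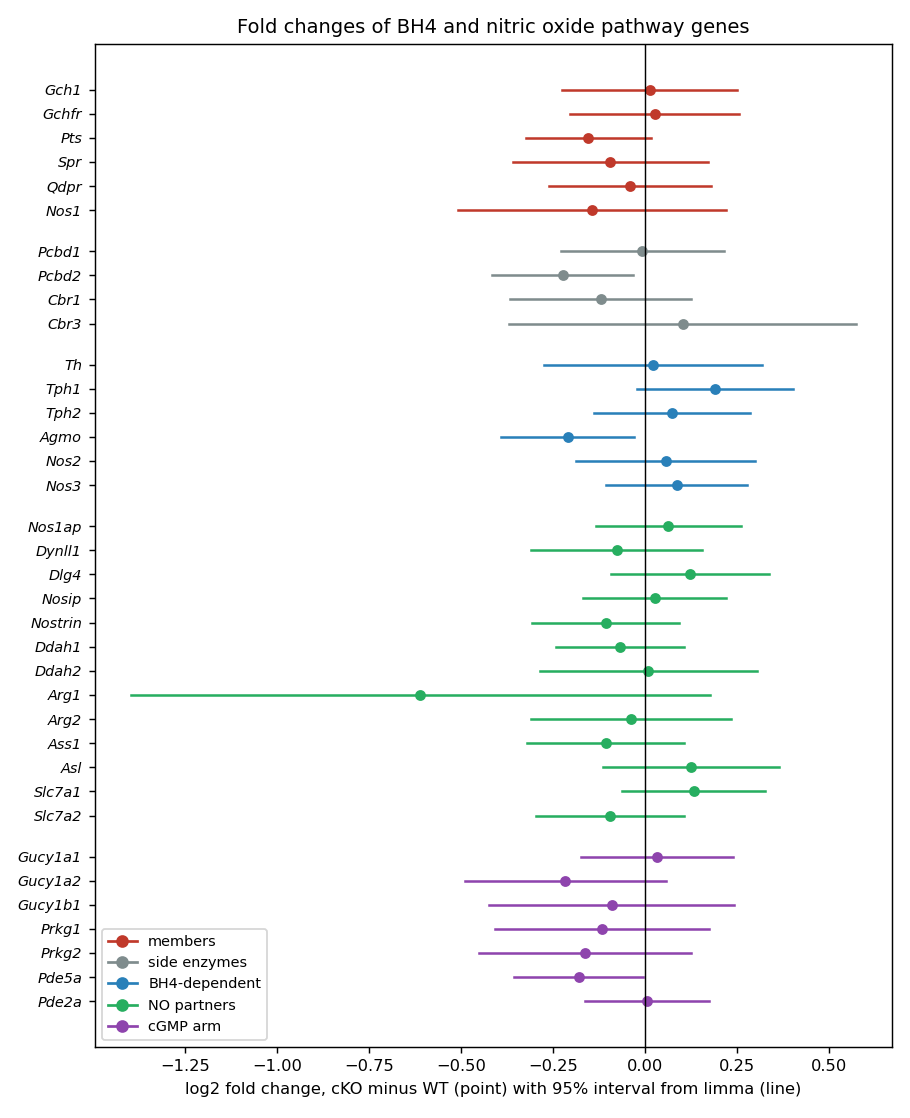
Log2 fold change, cKO minus wild-type (WT), on the x axis with its 95% confidence interval from limma for the 6 genes (red) and the 30 other pathway genes in 4 lists (grey, blue, green and purple). The intervals of *Pcbd2*, *Agmo* and *Pde5a* lie below 0, and that of *Arg1* is the widest.

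Several marker lists of other cell types were read beside these genes. Of 6 fibroblast and meningeal markers, 5 were lower in cKO. The summed linear signal of the 6 was 13021 to 13851 in the cKO arrays, against 14776 to 15016 in the wild-type arrays. *Dcn* had the highest signal, with means of 12.80 in the cKO and 12.96 in the wild-type arrays, and so weighs most in this sum. Only *Dcn* at -0.16 (SE 0.07) and *Pdgfra* at -0.26 (SE 0.10) had groups without overlap, and *Col3a1* was at 0.02 (SE 0.09). Of 6 mast cell markers 5 were lower, with sums of 1252 to 1282 in the cKO arrays and 1382 to 1470 in the wild-type arrays. *Kit* had the highest signal of the 6, with means of 9.60 in the cKO and 9.68 in the wild-type arrays. *Cpa3* was next, at 8.09 and 8.57, so *Kit* and *Cpa3* weigh most in these sums. The defining *Cpa3* was at -0.48 (SE 0.08) and was the only 1 of the 6 whose groups did not overlap. *Tpsb2* was at -0.10 (SE 0.08) and *Kit* at -0.08 (SE 0.07), both with overlap, while *Cma1*, *Mcpt4* and *Fcer1a* were below the median probe set signal. The sums of both lists were thus lower in every cKO array, as were *Pts*, *Pcbd2*, *Agmo*, *Arg1* and *Pde5a*. These are the 5 of the 36 genes read here whose groups did not overlap (13.9%), beside 13.7% of all genes. The part of fibroblasts, meninges and mast cells in the values was not tested. All 9 skeletal muscle markers, in a tissue whose fibers also contain NOS1, had positive fold changes, with sums of 3305 to 5641 in the cKO arrays and 1006 to 4138 in the wild-type arrays. The mean level of the muscle list was 8.34, 9.03 and 8.27 in the cKO arrays and 7.08, 6.62 and 8.38 in the wild-type arrays. The part of muscle in the *Nos1* values was not tested.

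The 5 measured markers of Nav1.8-lineage nociceptors had sums of 11065 to 11621 in the cKO arrays, against 10863 to 12238 in the wild-type arrays, and a median fold change of 0.01. The median was 0.02 for 8 pan-neuronal genes and 0.02 for 5 satellite glia genes. The satellite glia genes went both ways, with *Cdh19* at -0.33 (SE 0.09, lower in every cKO array) and *Kcnj10* at 0.20 (SE 0.08, higher in every cKO array), and their part in the pathway values was not tested. The median was 0.00 for 4 genes of myelinating Schwann cells, 0.01 for 7 macrophage genes and 0.00 for 6 endothelial genes. The pan-neuronal sums did not overlap, with 36298 to 36859 in the cKO arrays and 35925 to 36200 in the wild-type arrays. The mean log2 level of the same list did overlap, with 11.64 to 11.6875 in the cKO arrays and 11.6325 to 11.6425 in the wild-type arrays. Of the 8 genes, 5 were higher and 3 lower in cKO. They ran from *Rbfox3* at 0.20 (SE 0.07, adjusted p = 0.651 from limma) to *Map2* at -0.15 (SE 0.09, adjusted p = 0.717 from limma).

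**Figure D5:**
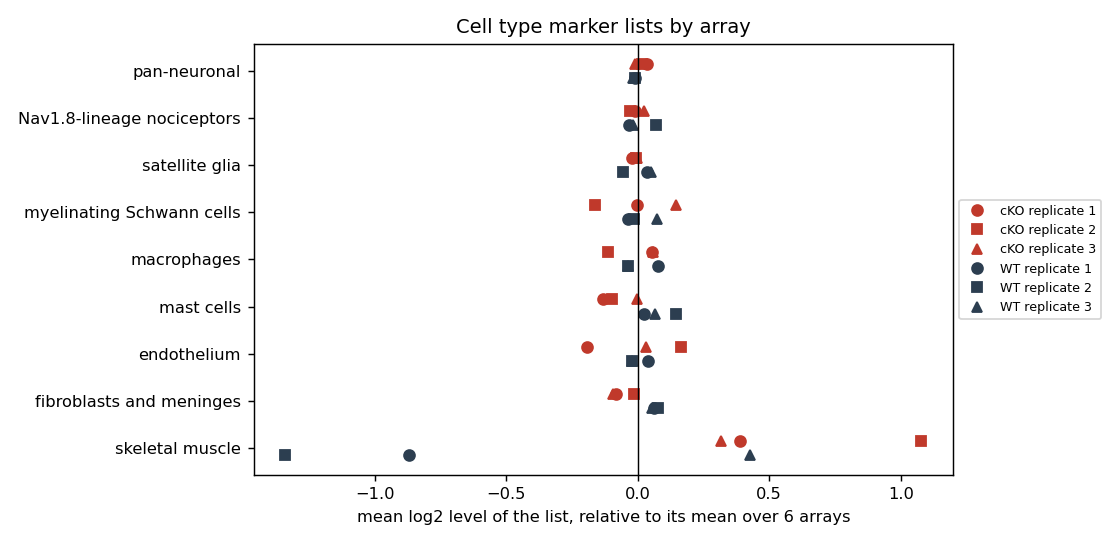
Mean log2 level of each marker list by array, relative to its mean over the 6 arrays (x axis), with cKO arrays in red above wild-type (WT) arrays in dark. The skeletal muscle list spreads furthest, and the mast cell and the fibroblast and meningeal lists are lower in every cKO array.

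Genes with the pattern most like each of the 6 were ranked by Pearson's correlation over the 6 arrays, among 13436 other genes above the median probe set signal (13437 for *Gch1*). The closest were *Inpp5k* for *Gch1* (r = 0.996), *Prpf38b* for *Gchfr* (0.971), *Txnl4b* for *Pts* (0.997), *Hebp1* for *Spr* (0.991), *Ube2q1* for *Qdpr* (0.987) and *Carmn* for *Nos1* (0.989). A correlation above 0.95 was reached by 2 genes for *Gchfr*, 10 for *Gch1*, 11 for *Nos1*, 25 for *Spr*, 35 for *Pts* and 56 for *Qdpr*. With 6 arrays and this many genes these values describe the arrays only.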

How the data were processed

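RNA of 3 cKO and 3 wild-type DRG samples was hybridized to Mouse Gene 2.0 ST arrays, 1 array per sample. The deposited values are log2 signals that the authors made with oligo and RMA, which corrects background, normalizes by quantiles and summarizes each probe set. Versions are not given in the sources used here. Genes were named by the platform annotation, with 23521 of 41345 probe sets holding 1 gene symbol, and the one with the highest mean represented a gene (22180 genes). All probe sets were fitted with limma 3.58.1 in R 4.3.3 (group as the only term, eBayes at default settings, no filter). The fit was also run on simulated data with independent normal noise and no sex difference, so that run does not test it for these arrays. Precision is limited by how few arrays there are. Exact permutation tests used all arrangements of 3 against 3 arrays. The 6 genes, the lists and the rule for named genes (all 6 genes, the measured pathway genes, *Hdac4*, the closest genes by correlation and leading markers) were chosen with earlier results of these data known. The alternatives were cyclic loess, filters on probe sets, trend and robust eBayes, array weights, the replicate block, leaving out each array and sex as a covariate. RT-qPCR, imaging and behavior were not analysed here.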

Additional observations from a re-analysis of the deposited data

How the results depend on the processing

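No alternative gave any of the 6 genes an adjusted p under 0.05. The number of probe sets with an adjusted p under 0.05 in limma was 0 under all alternatives, an adjusted p under 0.1 included, except for 9 without cKO replicate 1, where sex and genotype cannot be told apart (range 0 to 9 with single arrays left out). *Pts* kept its direction in 14 of 14 alternatives, with an unadjusted p under 0.05 in 3 of them and adjusted p from 0.501 to 0.892. With single arrays left out, fold changes ranged from -0.0567 to 0.075 for *Gch1*, -0.045 to 0.08 for *Gchfr*, -0.11 to 0.035 for *Qdpr*, -0.23 to 0.015 for *Nos1* and -0.1633 to 0.00 for *Spr*. For pathway genes whose sign changed in this way, the ranges were -0.0633 to 0.0617 for *Pcbd1*, -0.0233 to 0.3017 for *Cbr3*, -0.0967 to 0.0933 for *Th*, -0.0383 to 0.0617 for *Nosip*, -0.0583 to 0.1317 for *Ddah2*, -0.1333 to 0.0717 for *Arg2*, -0.0083 to 0.1017 for *Gucy1a1*, -0.1683 to 0.0317 for *Gucy1b1*, -0.2167 to 0.0083 for *Prkg1* and -0.03 to 0.04 for *Pde2a*. Array weights turned the sign of *Gch1* (-0.0139) and *Pcbd1* (0.0171), and moved the median of the nitric oxide partners to -0.0860. With sex as a covariate the sign turned for *Gchfr* (-0.0533), *Cbr3* (-0.2933), *Th* (-0.05), *Nos3* (-0.0267), *Nosip* (-0.0333), *Ddah2* (-0.2333), *Gucy1a1* (-0.0133), *Prkg1* (0.0833) and *Pde2a* (-0.06), and the median of the side enzymes was -0.1967. The cause was not tested. Replicate numbers were not taken as pairs, since deviations of same-numbered arrays correlated at -0.04, -0.08 and -0.08. With the replicate block 0 probe sets had an adjusted p under 0.05, as without it, while *Pcbd2*, *Agmo* and *Pde5a* no longer had an unadjusted p under 0.05 (0.0593, 0.0718 and 0.0929). The 6 genes stayed on the same side of both thresholds (*Pts* -0.15, adjusted p = 0.807, *Gch1* 0.01 and *Nos1* -0.14). *Gch1* has no value among probe sets above the median signal, and other probe sets of the 6 genes were not run because each has 1. A tie counted as no overlap left the number of genes without overlap at 1. Signal over background was not analysed here.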
